A study of Mus musculus with 10 samples.

Results

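Potassium channel genes were followed through a comparison of mouse kidneys. They were taken as every protein-coding gene whose symbol begins with Kcn, and 87 of the 94 such genes in the GENCODE vM21 annotation had a row in the authors' deposited table. They are 87 of 18296 protein-coding genes there. Kcna10, Kcnj6, Kcnk9, Kcnk15, Kcnk16, Kcnk18 and Kcns2 had no row and were not analysed here. A gene's values are those of its most abundant transcript.

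RNA came from whole kidneys of wild-type Mus musculus on day 14, 5 from mice that received vehicle and 5 from mice whose drinking water held 0.5 g/L quinolinic acid, all under 1 batch label. Quinolinic acid is a tryptophan metabolite that activates NMDA-type glutamate receptors. The question is how renal transcripts differ with the exposure. The sequenced mice were picked by the submitters as representative of their groups, and strain, sex, age and the vehicle's make-up are not given in the labels. All 12 kidney marker genes examined, among them Lrp2, Umod, Aqp2 and Nphs1, stood at 1 CPM (a count scaled to library size) or more in the authors' deposited table.

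Each transcript has 5 values in the authors' deposited table, a log2 fold change (LFC), the mean level over all libraries as log2 CPM, a likelihood ratio, a p-value and its adjusted form over all 85107 transcripts. It holds no values of single kidneys, so neither the spread between mice nor the depth of a library can be shown. Errors below are approximate 95% intervals computed from the LFC and the likelihood ratio. They are given only where a gene reached 0.1 CPM, and not for every such gene. Which group is the numerator is not stated in the header, so a positive sign is reported as deposited and is given no direction relative to quinolinic acid. In whole tissue, fewer cells of a type and less RNA per cell cannot be told apart.

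Potassium channels let potassium ions cross the membrane down their gradient and so set the membrane potential. In the nephron, basolateral channels recycle the potassium that the sodium pump brings in, and apical channels secrete it into the urine. The families differ in what opens them. Inward rectifiers (Kir) conduct inward more readily than outward, tandem-pore (K2P) channels carry background current, voltage-gated (Kv, EAG and KCNQ) channels open on depolarisation, and another group opens on intracellular calcium or sodium. Accessory subunits form no pore and tune the gating or traffic of those that do.

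What most pore-forming members share is a short stretch of the pore, the potassium selectivity filter. It is shown here as coding sequence, because it marks the family independently of the symbol that chose the genes. The stretch was searched as 5 consecutive codons (a threonine codon, any codon, a glycine codon, a codon that begins with T and a glycine codon), in frame and on the coding strand only, in the longest annotated coding sequence of each gene. Of the 87 members 58 (66.7%) held it, against 417 of 17866 other protein-coding genes (2.33%). All 10 K2P, 16 Kv1 to Kv4, 9 electrically silent Kv and 5 KCNQ genes held it, and so did 12 of 14 Kir and 5 of 8 calcium- or sodium-activated genes. It was found in 1 of 8 EAG genes and in none of the 17 accessory genes. A gene without a match lacked only these letters in the sequence searched, and was not shown to lack the filter. For Kcnj8, a Kir gene without a match, that sequence was only 381 bases long. In Kcnj16 the motif lies at coding bases 391 to 405. Of the K2P genes, 7 held it more than once.

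The 63 bases around the motif are printed for 6 abundant pore-forming genes and for Kcnk3, Kcna5 and Kcna6, whose fold changes are described further on. Letters are 5′ to 3′ on the coding strand, from the GENCODE vM21 transcripts (GRCm38, the assembly of mm10), and capitals mark the motif. All lie in coding exons.
Kcnj16, chr11:111024880-111024942, plus strand: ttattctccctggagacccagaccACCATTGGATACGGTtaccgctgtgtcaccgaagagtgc
Kcnj15, chr16:95295956-95296018, plus strand: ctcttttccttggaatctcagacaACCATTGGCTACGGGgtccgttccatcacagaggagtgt
Kcnj1, chr9:32396681-32396743, plus strand: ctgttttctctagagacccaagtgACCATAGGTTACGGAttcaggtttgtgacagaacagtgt
Kcnk5, motif at coding bases 292 to 306, chromosome 14: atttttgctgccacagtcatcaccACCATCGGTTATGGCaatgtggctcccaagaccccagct
Kcnk1, motif at coding bases 349 to 363, chromosome 8: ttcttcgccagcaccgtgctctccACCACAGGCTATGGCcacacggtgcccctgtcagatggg
Kcnq1, motif at coding bases 931 to 945, chromosome 7: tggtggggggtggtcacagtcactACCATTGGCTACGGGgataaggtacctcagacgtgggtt
Kcnk3, chr5:30622178-30622240, plus strand, the second of 2 matches: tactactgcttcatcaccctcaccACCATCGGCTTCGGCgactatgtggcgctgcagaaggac
Kcna5, chr6:126533721-126533783, minus strand: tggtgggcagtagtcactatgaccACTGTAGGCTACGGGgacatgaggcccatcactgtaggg
Kcna6, chr6:126738623-126738685, minus strand: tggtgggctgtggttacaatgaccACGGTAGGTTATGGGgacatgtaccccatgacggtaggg

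The windows of Kcnk5, Kcnk1 and Kcnq1 cross an exon boundary and so have no single genomic span. Over these 63 bases the 3 Kir genes shared from 63.5% (Kcnj15 and Kcnj1) to 69.8% (Kcnj15 and Kcnj16) of positions. Kcna5 and Kcna6, both of the Shaker-related Kv1 subfamily and both on chromosome 6, shared 81%.

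Levels came first, because they decide how well each gene was measured. Levels between genes are compared as mean CPM per kilobase of the representing transcript, computed from the authors' deposited table. Kcnj16 had the highest value, 63.2 CPM per kb, and encodes a Kir subunit that pairs with the product of Kcnj10 on basolateral membranes of the distal nephron. Kcnj15, a related Kir gene of the proximal tubule, followed at 55.7 and Kcnj1 at 31.4. Kcnj1 encodes ROMK, the apical channel that recycles potassium in the thick ascending limb and secretes it in the collecting duct. These 3 genes held 72.9% of the summed CPM per kb of all 87 members. Without values per mouse, whether neighbours in this order differ beyond their spread cannot be shown.

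The K2P genes Kcnk5 and Kcnk1 stood next, at 16.7 and 12.2 CPM per kb, and Kcnj10 at 4.55. Kcnk5 encodes an alkali-sensitive background channel of the proximal tubule. After them came Kcnq1 at 4.01 CPM per kb and Kcne1 at 2.52, a pore and its accessory subunit that form one channel. Kcnj8, the vascular ATP-sensitive Kir gene, stood at 1.38. Only 8 of the 87 members exceeded the median protein-coding gene, 1.80 CPM per kb, in the authors' deposited table.

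Most members were scarce. In CPM, 27 members reached 1 CPM, 31 lay from 0.1 to 1 CPM and 29 lay below 0.1 CPM in the authors' deposited table. The lowest level in that table is 0.0201 CPM, and Kcnv1, an electrically silent subunit gene, stood at that value. Kcnma1, the pore of the large-conductance calcium-activated channel that secretes potassium with flow, stood at 0.580 CPM, and its partners Kcnmb2 and Kcnmb4 at 0.0851 and 0.0830 CPM. Kcna1, a Kv gene of the distal convoluted tubule, stood at 0.113 CPM.

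**Figure D1:**
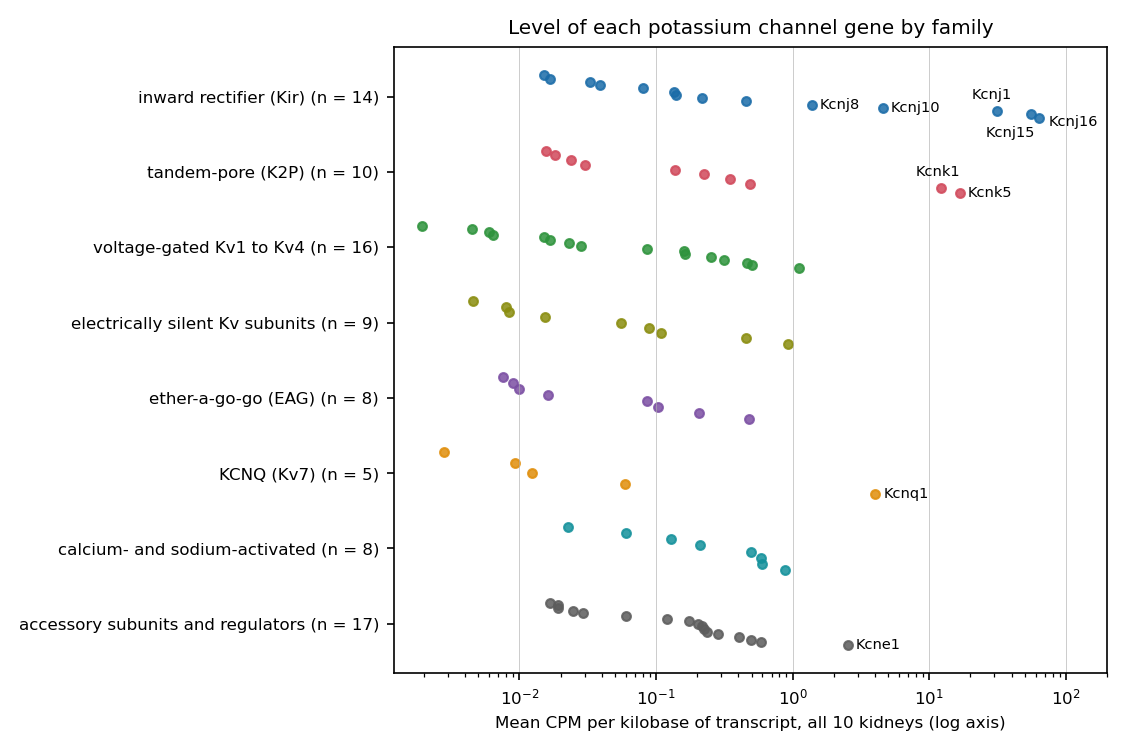
Mean CPM per kilobase of transcript over all 10 kidneys (horizontal log axis) for each of the 87 potassium channel genes, 1 point per gene, in rows by family, with the most abundant genes named. Kcnj16, Kcnj15 and Kcnj1 stand at 63.2, 55.7 and 31.4 CPM per kb, and most other members lie below 1.

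No potassium channel gene passed the authors' likelihood-ratio test, at an adjusted p under 0.05 over all 85107 transcripts. Of all transcripts 12 (0.0141%) passed, and among protein-coding genes 5 of 18296 (0.0273%), so a count of 0 among 87 members lies near the background. The smallest adjusted p of a member was 0.480, for Kcna6, in the authors' deposited table. At an unadjusted p under 0.05 there were 8 members (9.20%) against 963 protein-coding genes (5.26%). All 8 had a positive sign, where the background is 4.14% positive and 1.12% negative. After removal of the trend of LFC on transcript length and level, 4 of them (Kcna5, Kcna6, Kcng2 and Kcnk3) were still positive with an unadjusted p under 0.05, beside 1.85% of protein-coding genes. The median LFC was then -0.0038 over the members and -0.013 over all protein-coding genes. With the deposited values, the median LFC was 0.11 over the members and 0.07 over all protein-coding genes. A positive sign was held by 51 of 87 members (58.6%) against 65.8% of protein-coding genes.

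The abundant channels of the nephron had small LFCs and narrow intervals. All 7 members of at least 10 CPM had an LFC within 0.17 of 0, and their intervals ran no further than -0.47 to 0.45, in the authors' deposited table and the errors computed from it. In the authors' deposited table Kcnj15 (chromosome 16, 95257558 to 95300211, plus strand) had an LFC of -0.01 (95% interval -0.47 to 0.45) at 318 CPM. Kcnj16 (chromosome 11, 110968033 to 111027965) stood at -0.10 (-0.41 to 0.22) at 234 CPM, and its partner Kcnj10 (chromosome 1, 172341210 to 172374085) at -0.08 (-0.36 to 0.19) with 24.6 CPM, in the authors' deposited table. Both subunits of that basolateral channel thus had small LFCs of the same sign.

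For Kcnj1 (chromosome 9, 32372493 to 32399186) the authors' deposited table gave an LFC of -0.11 (-0.42 to 0.20) at 93.7 CPM, with p = 0.488. Kcnk5 (chromosome 14, 20140057 to 20181809) had one of -0.08 (-0.47 to 0.32) at 56.7 CPM, and Kcnk1 (chromosome 8, 125995170 to 126030685) one of -0.01 (-0.29 to 0.26) with 27.3 CPM, in the authors' deposited table. Kcnq1 (chromosome 7, 143107254 to 143427042) had an LFC of 0.17 (-0.09 to 0.42) and its subunit Kcne1 (chromosome 16, 92345982 to 92359468) one of 0.13 (-0.18 to 0.43), in the authors' deposited table. Every interval held 0 and none reached a 2-fold difference. On the list of channels known from kidney, 26 genes had a row, 15 of them at 1 CPM or more, and signs were 13 positive and 13 negative, with a median LFC of -0.0027. Kcnk3, Kcna5 and Kcne3 were the 3 of these 26 with an unadjusted p under 0.05, beside 5.26% of all protein-coding genes.

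All 27 members of at least 1 CPM had LFCs under 0.5 in size. The values were between -0.35 and 0.48, and no interval reached a 2-fold difference in either direction. Of the 27, 15 had a positive sign, and 1 (3.70%) had an unadjusted p under 0.05 against 4.07% of the 12632 protein-coding genes of at least 1 CPM. That member was Kcne4 (chromosome 1, 78816758 to 78820028), an accessory subunit that dampens Kv currents, with an LFC of 0.48 (0.03 to 0.93) at 1.07 CPM, p = 0.0382 (0.794 after adjustment) in the authors' deposited table. Its other transcript, at 0.994 CPM, had an LFC of 0.55 in the authors' deposited table.

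**Figure D2:**
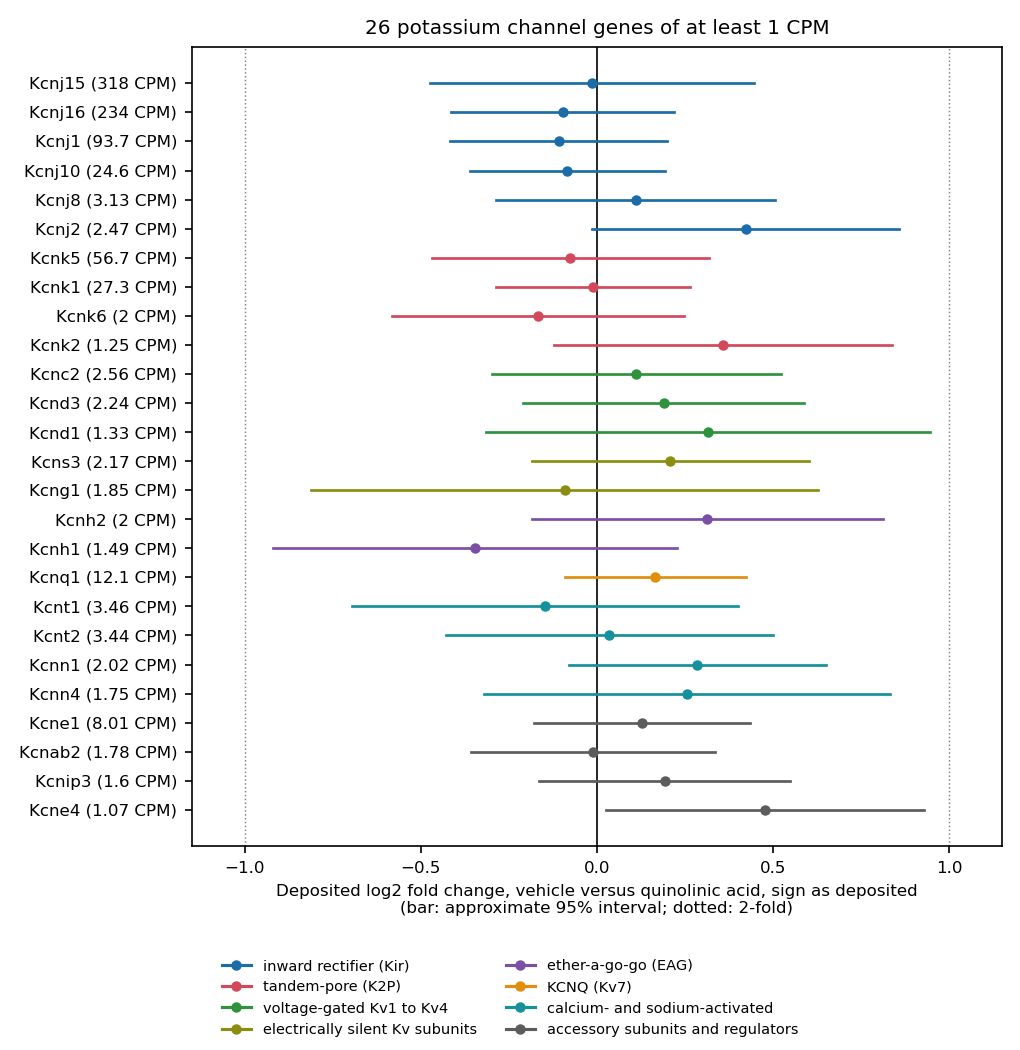
Deposited log2 fold change of 26 of the 27 potassium channel genes of at least 1 CPM (horizontal axis, sign as deposited), coloured by family, with mean CPM beside each symbol. Points are fold changes, bars approximate 95% intervals and dotted lines a 2-fold difference. All bars stay inside the dotted lines and only that of Kcne4 leaves 0 out.

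By family, Kir genes had 9 positive and 5 negative signs and a median LFC of 0.17. The 6 of at least 1 CPM had 2 positive and 4 negative signs and a median of -0.05. None of the 14 Kir genes had an unadjusted p under 0.05, beside 5.26% of all protein-coding genes, so a count of 0 lies near the background. Kcnj2, a strong inward rectifier of muscle and vessels, came closest, at 0.42 (-0.01 to 0.86), 2.47 CPM and p = 0.0571 in the authors' deposited table. Kcnj8 had an LFC of 0.11 (-0.29 to 0.51) in the authors' deposited table. Kcnj12 (0.22 at 0.342 CPM) and Kcnj11 (-0.26 at 0.0730 CPM), a strong Kir gene and the pore of the ATP-sensitive channel of the pancreatic beta cell, were scarce in the authors' deposited table.

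Among 10 K2P genes the median LFC was -0.01, with 4 positive and 5 negative signs and 1 gene listed at 0. Kcnk3 (chromosome 5, 30588170 to 30625271) encodes an acid-sensitive background channel of vascular muscle, adrenal and nervous tissue. It was the 1 K2P gene of 10 (10%) with an unadjusted p under 0.05, beside 5.26% of all protein-coding genes. Its LFC was 0.77 (0.25 to 1.29) at 0.528 CPM, p = 0.0039 (0.598 after adjustment) in the authors' deposited table. Kcnk2, a stretch-sensitive channel gene, stood at 0.36 (-0.12 to 0.84), Kcnk6 at -0.17 (-0.58 to 0.25) and Kcnk13 at 0.16 (-0.76 to 1.08) in the authors' deposited table.

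Of 16 genes of Kv1 to Kv4, 10 had a positive sign, with a median LFC of 0.15, and 3 (18.8%) had an unadjusted p under 0.05, beside 5.26% of all protein-coding genes and 9.78% of those from 0.1 to 1 CPM. Kcna6 (chromosome 6, 126708329 to 126740662, minus strand) had the smallest p of all members, 0.00160, with an LFC of 1.21 (0.46 to 1.97), a 2.32-fold difference, and a level of 0.937 CPM in the authors' deposited table. Kcna5 (chromosome 6, 126532551 to 126535412, minus strand), which encodes a Kv channel of vascular and cardiac muscle, had one of 0.75 (0.13 to 1.38) at 0.244 CPM with p = 0.0174 in the authors' deposited table. Kcna4 was listed at 2.53 with p = 0.0420 in the authors' deposited table at no more than 0.0309 CPM, and is named outside the naming rule because its values were seen. Kcna1 had an LFC of 0.53 (-0.30 to 1.36) in the authors' deposited table. The adjusted p of Kcna5 and Kcna4 was 0.788 and 0.794 in the authors' deposited table.

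Negative values in this family came from scarce genes as well. Kcnb2 (-0.67, interval -1.82 to 0.49, 0.225 CPM) and Kcna2 (-1.44 at 0.0226 CPM, p = 0.263) were negative in the authors' deposited table, and neither passed. Both are better known from neurons.

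Electrically silent subunits form no channel alone and modify Kv2 pores. Of the 9 members, 6 had a positive sign. Kcng2 was the 1 among them (11.1%) with an unadjusted p under 0.05, beside 5.26% of all protein-coding genes. It had an LFC of 1.17 (0.39 to 1.95) at 0.248 CPM, p = 0.00334 (0.587 after adjustment) in the authors' deposited table. Kcns3, at 2.17 CPM, had one of 0.21 (-0.18 to 0.60) in the authors' deposited table. Of 8 EAG genes 5 had a negative sign, with a median of -0.17. None had an unadjusted p under 0.05, beside 5.26% of all protein-coding genes, so a count of 0 lies near the background. Kcnh1 stood at -0.35 (-0.92 to 0.23), Kcnh2, the hERG channel gene, at 0.31 (-0.19 to 0.81) and Kcnh8 at -1.07 (-2.75 to 0.62) in the authors' deposited table.

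All 8 calcium- or sodium-activated genes had LFCs within 0.5 of 0. Kcnma1 stood at -0.26 (-0.75 to 0.22), Kcnn4, an intermediate-conductance channel gene, at 0.26 (-0.32 to 0.83) and Kcnt1, a sodium-activated channel gene, at -0.15 (-0.70 to 0.40) in the authors' deposited table. The small-conductance gene Kcnn1 had an LFC of 0.29 (-0.08 to 0.65) and Kcnn3 one of -0.48 (-1.12 to 0.15), in the authors' deposited table. None of the 8 had an unadjusted p under 0.05, beside 5.26% of all protein-coding genes, so a count of 0 lies near the background. The 5 KCNQ genes had 4 positive signs, and 4 of the 5 stood below 0.25 CPM.

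Among 17 accessory and regulatory genes, 11 had a positive sign, the median LFC was 0.13, and 3 (17.6%) had an unadjusted p under 0.05, beside 5.26% of all protein-coding genes. They were Kcne4, Kcne3 and Kcnab3. Kcne3 (chromosome 7, 100178697 to 100184865), which holds KCNQ channels open in secretory epithelia, had an LFC of 0.59 (0.09 to 1.10) at 0.285 CPM with p = 0.0217 in the authors' deposited table. Kcnab3 (chromosome 11, 69326258 to 69333042), a beta subunit of Kv1 channels, had one of 0.49 (0.07 to 0.92) at 0.518 CPM with p = 0.0222, and both stood at 0.788 after adjustment in the authors' deposited table. Kcnip3, a calcium-binding protein that partners Kv4 channels, stood at 0.19 (-0.16 to 0.55) and 1.60 CPM in the authors' deposited table. Kcnrg (-0.86 at 0.0439 CPM), Kcnmb3 (-0.82 at 0.0328 CPM), Kcne2 (-0.55 at 0.0280 CPM), Kcnmb2 (-0.13) and Kcnmb4 (0.01) all had an unadjusted p above 0.05 in the authors' deposited table.

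The members with an unadjusted p under 0.05 were thus mainly scarce genes. From 0.1 to 1 CPM they were 6 of 31 (19.4%), all positive, beside 9.78% of the 2515 protein-coding genes at that level, of which 7.83% were positive. Below 0.1 CPM they were 1 of 29 (3.45%), beside 6.45% of 3149. Marker genes of nervous tissue and fat were mostly positive too in the authors' deposited table. All 15 nervous tissue markers were positive, beside 65.8% of all protein-coding genes, with a median LFC of 0.53 and 6.41 CPM in sum. Their smallest LFC was 0.0064 (Gap43), and 5 of the 15 lay under 0.1 CPM. At an unadjusted p under 0.05 there were 4 of them (26.7%), beside 5.26% of all protein-coding genes. Of 10 adipocyte markers 9 were positive, with a median of 2.93. At an unadjusted p under 0.05 there were 8 (80%), beside 5.26% of all protein-coding genes. Their smallest adjusted p was 0.0748 (Adipoq, 0.216 CPM). Only 3 of the 10 reached 1 CPM, and the median level was 0.207 CPM. The negative one, Lipe, stood at -0.02 and 6.81 CPM. Smooth muscle and pericyte markers had 8 of 10 positive and a median of 0.17, striated muscle 6 of 9 and 0.15, urothelium 9 of 10 and 0.42, and leukocytes 7 of 10 and 0.07. The smooth muscle and urothelium lists each had 1 marker (10%) with an unadjusted p under 0.05, beside 5.26% of all protein-coding genes. These were Rgs5 and Psca, with an adjusted p of 0.794 and 0.790. The striated muscle and leukocyte lists had 0. The positive shares of striated muscle (66.7%) and leukocytes (70%) lay near the 65.8% of all protein-coding genes. No marker of any list was negative with an unadjusted p below 0.05. Only 1.12% of all protein-coding genes were, so a count of 0 lies near the background. The part of these cells in the channel values was not tested.

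**Figure D3:**
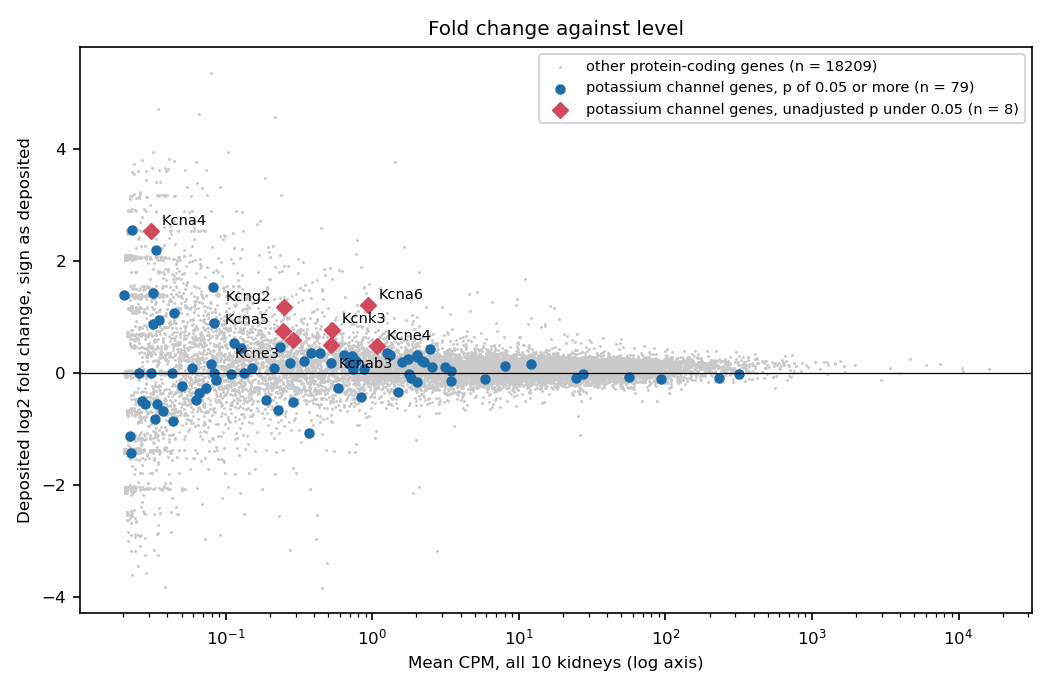
Deposited log2 fold change (vertical axis, sign as deposited) against mean CPM over all 10 kidneys (horizontal log axis) for 18296 protein-coding genes, with the 87 potassium channel genes in colour. The 8 diamonds are members with an unadjusted p under 0.05, all above 0 and all but Kcne4 under 1 CPM, and the members above 10 CPM lie within 0.17 of 0.

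The transcripts of Kcna6 differed in level by the part of the locus they cover. Its representing transcript, annotated for nonsense-mediated decay, and a coding transcript each had 0.937 CPM and an LFC of 1.21 in the authors' deposited table. A noncoding transcript of 3 exons between 126708331 and 126736811, all on the 3′ side of the coding sequence (126738338 to 126739924, where the pore stretch lies), had 0.912 CPM and an LFC of 1.22 in the authors' deposited table. The single-exon transcript from 126736688 to 126740151, which holds the whole coding sequence, had only 0.0741 CPM, an LFC of 0.89 and p = 0.225 in the authors' deposited table. Gm26673, an antisense gene with no row in the table, has an exon from 126738320 to 126741601 on the opposite strand that covers the coding sequence. No source used here says whether reads were counted by strand. The most 5′ exon of the noncoding transcript runs from 126735215 to 126736811. It lies in the 3′ untranslated part of the coding exon (126735215 to 126740662) of the representing transcript, so both transcripts count the same reads there.

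Isoforms of other members differed in sign. The 87 members had 284 transcripts, 50 members had more than 1, and in 22 of these the signs were mixed or a value was listed at 0. No transcript had an adjusted p under 0.05, and 22 (7.75%) had an unadjusted p under 0.05 beside 6.08% of all transcripts. Of these, 15 were positive and 7 negative, beside 2.86% positive and 3.22% negative among all transcripts, and the 7 belonged to 4 genes, which are named because they are few. Kcnd3, the pore of transient outward current, had an LFC of 0.19 for its main transcript at 2.24 CPM, while 3 shorter ones stood at -1.04 to -1.49 with levels of 0.0563 to 0.0725 CPM in the authors' deposited table. Kcnab2 stood at -0.01 for its main transcript at 1.78 CPM, and at -0.63 and -0.58 for a pair of coding transcripts at 0.219 and 0.210 CPM, in the authors' deposited table. The negative row of Kcnh8 (-2.88, 0.172 CPM) and that of Kcnt1 (-1.14, 0.0723 CPM) were transcripts with a retained intron in the authors' deposited table. The transcripts of a gene share reads, so these are not independent measurements.

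All 7 negative transcripts with an unadjusted p under 0.05 ended upstream of the 3′ end of their gene's representing transcript, by 815 bases (Kcnh8) to 29331 bases (the retained-intron transcript of Kcnt1). Over all protein-coding genes, 94.1% of the 2222 negative further transcripts at that p ended over 500 bases short. Among the 197 further transcripts of members, 128 ended over 500 bases short of that 3′ end, and the 7 were 5.47% of them, beside 5.63% over all protein-coding genes. The LFC of these 128 was below that of the representing transcript in 104 cases (81.2%), with a median difference of -0.39. The other 69 further transcripts had a median difference of 0.00, with 49.3% lower. Of these 69, 6 (8.7%) were positive and none negative at an unadjusted p under 0.05, beside 4.89% and 0.808% over all protein-coding genes. The pattern was not particular to channel genes. Over all protein-coding genes 79.6% of 37177 further transcripts that end over 500 bases short were lower than the representing one (median difference -0.14), against 39% of the other 16099. The limit of 500 bases was chosen after the values were seen. Transcript length went along with the LFC as well, with a Spearman correlation across genes of -0.28 over the 27 members of at least 1 CPM and -0.53 over 12632 protein-coding genes. Genes are not independent replicates, and the part of this 3′ end pattern in the channel values was not tested.

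**Figure D4:**
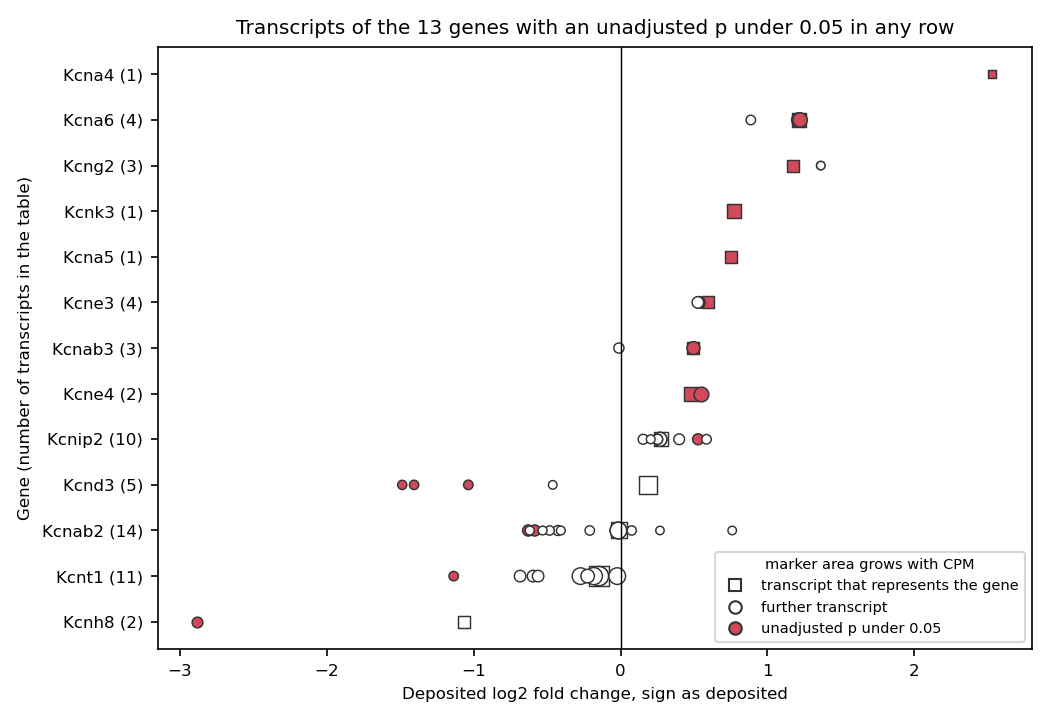
Deposited log2 fold change (horizontal axis, sign as deposited) of every transcript of the 13 potassium channel genes with an unadjusted p under 0.05 in any row. Squares represent the gene, circles are further transcripts, red marks an unadjusted p under 0.05 and area grows with CPM. The red circles of Kcnd3 and Kcnab2 lie left of 0, from -1.49 to -0.58, while their squares lie at 0.19 and -0.01.

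Several members sit side by side in the genome. Within 100 kb there were 7 pairs, and the LFCs of several pairs had opposite signs. Kcnj16 and Kcnj2, with a gap of 38.2 kb on chromosome 11, had LFCs of -0.10 and 0.42, Kcnj1 and Kcnj5 on chromosome 9 had -0.11 and 0.33, and Kcnj10 and Kcnj9 on chromosome 1 had -0.08 and 0.45, in the authors' deposited table. None of these 6 genes had an unadjusted p under 0.05, beside 5.26% of all protein-coding genes. The signs were the other way round for Kcne1 (0.13 at 8.01 CPM) and Kcne2 (-0.55 at 0.0280 CPM), with a gap of 47.9 kb on chromosome 16, in the authors' deposited table. Kcna1 and Kcna6, with a gap of 61.9 kb on chromosome 6, had LFCs of 0.53 and 1.21 in the authors' deposited table. Exons of 21 representing transcripts overlapped another gene on the opposite strand. The overlaps covered 50.7% of Kcnmb4 (with Kcnmb4os2), 40.2% of Kcna6 (with Gm26673) and 31.1% of Kcnj3 (with Gm26794). They covered 8.01% of Kcnk1, 6.01% of Kcnk3 and 3.99% of Kcnq1 (with Kcnq1ot1). The part of such overlaps in the LFCs, that of Kcna6 included, was not tested. For Kcnj13 the overlap with Gigyf2 covered 49.1% of the transcript, so its LFC of 0.19 in the authors' deposited table is uncertain.

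Partner genes outside the family gave no call either. Of 12 genes encoding subunits or calmodulins that bind these channels, 9 had a positive sign (75%, beside 65.8% of all protein-coding genes). None passed the authors' test, and 2 (16.7%) had an unadjusted p under 0.05, beside 5.26% of all protein-coding genes. Abcc9, the sulfonylurea receptor that pairs with the Kcnj8 product in vessels, stood at -0.05 (-0.37 to 0.28) and Amigo1, a Kv2 partner, at -0.02 (-0.24 to 0.21) in the authors' deposited table. Lrrc55 (0.69 at 0.419 CPM, p = 0.0376) and Lrrc26 (1.33 at 0.106 CPM, p = 0.0456), gamma subunits of the Kcnma1 channel, each had p = 0.794 after adjustment in the authors' deposited table.

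Of 31 further genes of renal potassium handling, 20 were positive (64.5%, beside 65.8% of all protein-coding genes) and 11 negative. The median LFC was 0.07, and none passed the authors' test. Sgk1, the aldosterone-responsive kinase, was the 1 gene among them (3.23%) with an unadjusted p under 0.05, beside 5.26% of all protein-coding genes. It had an LFC of 0.69 and p = 6.1e-05 (0.145 after adjustment) in the authors' deposited table. Hsd11b2, which shields the mineralocorticoid receptor from glucocorticoids, stood at 0.29 (-0.03 to 0.60) and the receptor gene Nr3c2 at 0.14 (-0.14 to 0.41) in the authors' deposited table. The sodium channel subunit gene Scnn1a had an LFC of 0.11 (-0.18 to 0.39), the thiazide-sensitive cotransporter gene Slc12a3 one of 0.18 (-0.15 to 0.52), the calcium-sensing receptor gene Casr one of -0.34 (-0.72 to 0.03) and the kinase gene Wnk3 one of -0.51 (-1.17 to 0.14), in the authors' deposited table.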

How the data were processed

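RNA of 5 vehicle and 5 quinolinic acid kidneys was sequenced, grouped by the labels' titles. FastQC 0.11.2, STAR 2.5.3a, featureCounts, Subread 1.4.6, edgeR and the build mm10 are named in the submitters' processing notes. Annotation release, filters and strand setting are not given in the sources used here. The values are, per the file headers, the authors' log2 fold change, log2 CPM, p-value and adjusted p, and a likelihood-ratio score, for each of 85107 transcripts. Deposited p-values equalled the chi-square tail of the score on 1 degree of freedom, and adjusted ones the Benjamini-Hochberg value over all transcripts, apart from rounding.

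Transcripts were joined by identifier without version to GENCODE vM21, and 83446 (98.0%) matched. Each gene was represented by its row of highest log2 CPM. An approximate standard error was computed, the size of the log2 fold change over the square root of its likelihood ratio. The depth behind each value is unknown. The trend alternative used loess (span 0.5, R 4.3.3) and was tested on simulated data. Python 3.11.15, numpy 2.4.6, pandas 2.3.3, scipy 1.17.1 and matplotlib 3.10.9 did the rest. A list was described by its counts and median, with no test.

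The members and lists were chosen with earlier results of these data known. The rule named members with an adjusted p under 0.05, the 8 of each sign with the smallest p at 1 CPM or more, the 6 of each sign below 1 CPM, the 10 of highest CPM per kb, and 26 channels of a kidney list. Of the other lists it named up to 2 genes of each sign, with Sgk1, Scnn1a, Slc12a3 and Nr3c2. Further members were named after their values were seen, for an isoform, a neighbour or a family extreme. Alternatives were other thresholds, filters, representing transcripts, adjustment families and the removal of trends. Some values of the members are not reported here.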

Additional observations from a re-analysis of the deposited data

How the results depend on the processing

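No member had an adjusted p under 0.05 or under 0.1 over all transcripts, over 1 row per gene, or over protein-coding genes of at least 1 CPM. At an unadjusted p under 0.05 the count was 8 (9.20%, beside 5.26% of all protein-coding genes). Under 0.01 it was 3. The share of protein-coding genes at that limit is not given here, so the 3 cannot be set against a background. The 8 positive members at an unadjusted p under 0.05 became 1 among members of at least 1 CPM, and 4 (Kcna5, Kcna6, Kcng2 and Kcnk3) after removing the trend on length and level, where 338 protein-coding genes (1.85%) were positive. The count of 0 negative members became 1 with that trend removed (Kcnn3), where 437 protein-coding genes (2.39%) were negative. It became 1 with the transcript of highest CPM per kilobase (Kcnh8), where the share of protein-coding genes is not given here. The median log2 fold change, 0.11, became -0.0038 with the trend removed, where that of all protein-coding genes was -0.013. It became 0.039 with the median of all protein-coding genes subtracted. Subtraction of that median was added for the counts after seeing the data, and left 6 positive members. The share of protein-coding genes under it is not given here, so the 6 cannot be set against a background.

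Of 205 alternative values for 41 named genes, 198 kept their sign. Kcnb2 stood at 0.24 and Kcnq1 at -0.38 with the median over all their transcripts, and Kcnj8 at -0.0038 with the trend removed. Kcnmb4 stood at -1.37 with the transcript of highest CPM per kilobase, -1.25 with the median over transcripts, -0.13 with the trend removed and -0.066 with the median of all genes subtracted. The causes were not tested. No paired analysis was possible because the values are a finished comparison without values per library, and for the same reason leaving out a replicate was not run. At 0.1 CPM or more, 15 members had an interval that reached a 2-fold difference, so at these levels a difference of that size was not excluded.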
